A study of Drosophila melanogaster with 17 samples.

Results

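The transcriptome of midgut cells that overexpressed the proneural protein Scute was set directly against that of cells that overexpressed da:da, a forced homodimer of Daughterless. The cells came from guts of adult Drosophila and were sorted for escargot expression (esg+), which marks the intestinal stem cells and the enteroblasts they give rise to. The scute group carried UAS-scute and the da:da group carried UAS-da:da, and 3 control libraries from the same sequencing batch carried neither. All 3 groups shared the esg-Gal4 driver, the UAS-GFP marker and the temperature-sensitive Gal80 repressor under the tubulin promoter (tub-Gal80[ts]), and all were moved from 18 °C to 29 °C for 2 days. The labels give no other allele and no age. The comparison used 6 of the 17 libraries of the series, 3 with scute and 3 with da:da, chosen by their labels. Of 17807 genes in the count files, 14190 passed the low-count filter and were tested.

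Each library was a separate pool of about 100 midguts, from which 20000 to 40000 GFP-positive cells were sorted and their RNA amplified. The driver and the sort limit what was seen: a cell that lost GFP before the sort left the sample, and a cell that kept GFP stayed in it whatever it had become. In such bulk samples, fewer cells of a type and less RNA per cell cannot be told apart. The esg+ label was checked on esg itself, which stood at 365 to 570 CPM (counts relative to the TMM-scaled library size) with scute, 882 to 973 CPM with da:da and 631 to 684 CPM in controls.

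Scute and Daughterless (Da) are basic helix-loop-helix (bHLH) transcription factors that bind DNA as dimers. Da is the only fly E protein and the usual partner of tissue-specific bHLH proteins such as Scute, but it can also pair with itself, and Extramacrochaetae (Emc), which has no DNA-binding region, holds such proteins inactive. In the midgut, Scute drives progenitors towards the hormone-secreting enteroendocrine lineage, while Notch signalling from Delta drives them towards absorptive enterocytes and esg keeps them undifferentiated.

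Reads assigned to genes numbered 61837274 to 66109205 per scute library, 47136298 to 58993536 per da:da library and 54713908 to 66679229 per control library, with each mate of a pair counted. Scute libraries had a lower share of reads assigned to genes (80.2% to 81.2%) than da:da libraries (82.1% to 82.6%) and more reads outside annotated exons (6.70% to 7.34%, against 5.53% to 5.84%). The TMM scaling factors also moved with the genotype, at 1.17 to 1.22 with scute, 0.931 to 0.991 with da:da and 0.862 to 0.907 in controls. The part of these differences in the results was not tested beyond the change of scaling given with the counts of called genes. The first principal component held 58.2% of the variance and placed the scute libraries at 77.1 to 93.2, the da:da libraries at -46.6 to -31.8 and the controls at -44.9 to -43.0. The second, with 15.0%, parted da:da (33.3 to 41.1) from controls (-40.0 to -34.9), with scute between them (-2.44 to 0.260). Among scute libraries, replicate 3 differed most from the other two on hormone and heat shock transcripts, and its values are given where they matter.

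Scute and da:da cells differed in 6054 of 14190 genes, or 42.7%, at a Benjamini-Hochberg adjusted p under 0.05 in edgeR's quasi-likelihood test. Of all genes tested, 3042 (21.4%) were higher with scute and 3012 (21.2%) were lower. At an unadjusted p under 0.05 the number was 6930. The largest differences leaned towards scute: 1815 genes were higher by at least 2-fold and 1131 were lower by as much, 343 were higher and 72 lower by at least 8-fold, and 23 were higher and 4 lower by at least 64-fold. The median log2 difference was 1.21 among genes called higher and -0.83 among genes called lower. The libraries of the 2 genotypes did not overlap at 26.9% of genes with scute above and at 25.9% with da:da above. With plain library sizes in place of TMM, the median of all genes moved from 0.01 to 0.34 on the log2 scale, and the calls became 4757 higher and 1746 lower. Differences are therefore given relative to the TMM scale. Beside this contrast, 22.8% of genes were higher and 22.2% lower with scute than in the batch controls, and 5.39% were higher and 6.52% lower with da:da than in the same controls. These last 2 comparisons share their control libraries, so their values are only set side by side.

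**Figure D1:**
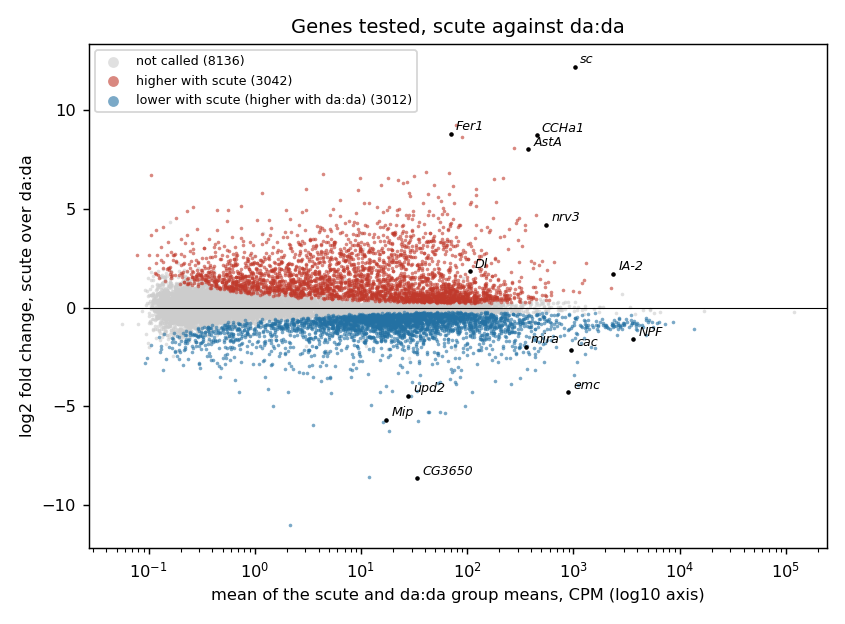
Log2 fold change of scute over da:da (vertical axis) against the mean of both group means in CPM (horizontal axis, log10), 1 point per gene tested. Red points are the 3042 genes called higher with scute, blue points the 3012 called lower and grey points the rest, and the tall upper cloud shows that differences of 8-fold or more were more often towards scute (343 genes) than towards da:da (72 genes).

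The genes that were manipulated marked the 2 genotypes. sc stood at 1754, 1787 and 2646 CPM in scute libraries, against 0.290, 0.456 and 0.583 CPM in da:da libraries. This was the largest fitted difference of any gene tested, with a log2 value of 12.18 ± 0.29 (SE, n = 3 each, adjusted p = 3.47e-10). da stood at 88.7, 87.1 and 85.3 CPM with scute and at 246, 199 and 210 CPM with da:da, a log2 difference of -1.33 ± 0.10 (adjusted p = 5.54e-07), with controls at 75.3 to 79.0 CPM. Counts of sc and da do not separate transgene from native transcripts, and 10.05% of the exon bases of da overlap an antisense gene that counting without strand could not set apart. emc, the inhibitor of both proteins, stood at 94.5, 93.2 and 69.4 CPM with scute, against 1711, 1673 and 1682 CPM with da:da and 39.8 to 62.2 CPM in controls. It was 19.7-fold lower with scute (log2 difference -4.30 ± 0.18, adjusted p = 1.06e-08), and the groups did not overlap. Against the shared controls, emc had a log2 value of 0.78 in scute cells (adjusted p = 0.0018) and one of 5.08 in da:da cells (adjusted p = 4.84e-08).

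**Figure D2:**
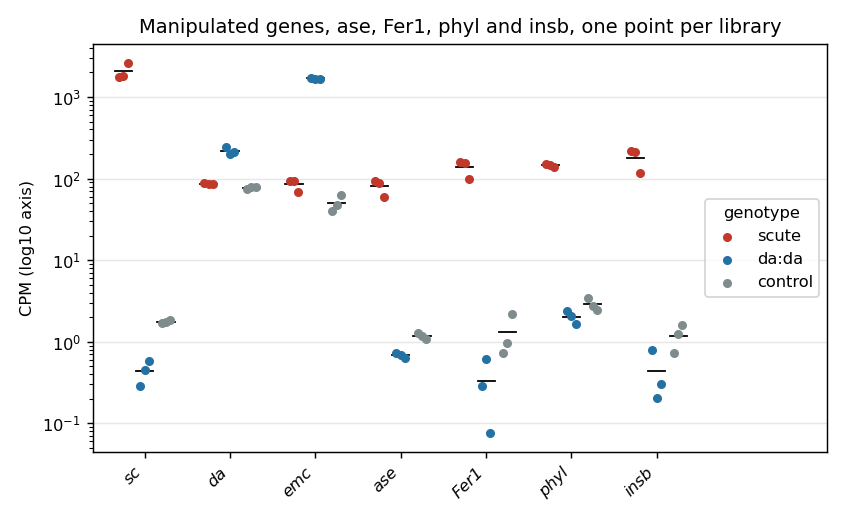
CPM of the manipulated genes, of emc and of 4 genes high with scute, on a log10 axis. Each point is 1 library (scute, da:da, control from left to right) and each bar the mean of 3 libraries; sc, ase, Fer1, phyl and insb were at 59.2 CPM or more in every scute library and at most 2.39 CPM in every da:da library, while emc was 1673 CPM or more with da:da.

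Of the other achaete-scute complex genes, only ase differed. ase, a neural precursor bHLH gene, stood at 94.7, 87.1 and 59.2 CPM with scute and at 0.726, 0.684 and 0.639 CPM with da:da (log2 difference 6.87 ± 0.21, adjusted p = 9.64e-10). ac, at 0.178 ± 0.002 CPM with scute and 0.131 ± 0.018 CPM with da:da (SD, n = 3), and l(1)sc, at 0.532 ± 0.0985 CPM with scute and 0.480 ± 0.169 CPM with da:da, were not called. Of 13 further bHLH genes tested that encode possible Da partners, 5 (38.5%) were higher with scute and none lower. The shares over all genes tested were 21.4% higher and 21.2% lower. Fer1, of the Fer family of bHLH genes, stood at 161, 157 and 100 CPM with scute, against 0.290, 0.616 and 0.0752 CPM with da:da (log2 difference 8.79 ± 0.54, adjusted p = 1.35e-07). dimm, which promotes the secretory fate of peptidergic cells, reached 35.5 ± 4.7 CPM with scute and 7.08 ± 2.03 CPM with da:da (log2 difference 2.32 ± 0.22, adjusted p = 4.75e-06). Oli, Fer3 and net were also higher, with means of at most 3.16 CPM. tap, a neurogenin relative, stood at 8.72, 15.0 and 42.1 CPM with scute and 11.2, 13.6 and 20.3 CPM with da:da, so its groups overlapped and it was not called (adjusted p = 0.38).

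In each direction, the 12 leading genes were taken from those that were called, averaged 10 CPM or more over the 6 libraries and did not overlap between genotypes. Those highest with scute were sc, lncRNA:CR44272, Fer1, CCHa1, insb, Npc2b, AstA, ase, CCHa2, nerfin-1, CG13502 and lncRNA:noe, with log2 differences between 6.58 and 12.18. On BDGP6.28, Npc2b, a sterol-transport protein gene (3R, 14089517 to 14092425), ends just before the hormone gene CCHa1 (3R, 14092504 to 14096835) and stood at 501 to 610 CPM with scute, against 1.02 to 2.83 CPM with da:da. The non-coding lncRNA:CR44272 (2R, 7992196 to 7992567) lies next to the Notch response gene Hey (2R, 7995438 to 7998278). It stood at 105, 152 and 215 CPM with scute, against 0.290, 0.0456 and 0.395 CPM with da:da.

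The genes furthest towards da:da were CG3650, lncRNA:CR43883, geko, CG40485, CG13117, Mip, CG7991, e(y)2b, Cyp6a17, Reg-5, CG45061 and CG32581. CG3650 stood at 0.180, 0.127 and 0.190 CPM with scute, against 67.4, 73.7 and 59.1 CPM with da:da (log2 difference -8.64 ± 0.36, adjusted p = 9.35e-09). It was near 0 in controls too, at 0.102 ± 0.102 CPM (SD, n = 3). lncRNA:CR43883, geko, CG40485, CG13117 and CG7991 were alike in this: all were at most 3.56 CPM with scute, at least 19.7 CPM with da:da and at most 2.53 CPM in controls. The other genes had means of at least 22.8 CPM in controls. e(y)2b shares 19.9% of its exon bases with an antisense gene. Mip, a myoinhibiting peptide of enteroendocrine cells, stood at 0.663 ± 0.098 CPM with scute, 33.9 ± 2.7 CPM with da:da and 31.9 ± 3.9 CPM in controls. Cyp6a17, a cytochrome P450 gene, stood at 2.14 ± 0.61 CPM with scute, 83.3 ± 15.4 CPM with da:da and 23.9 ± 4.3 CPM in controls. Reg-5 stood at 2.21 ± 0.64 CPM with scute, 85.8 ± 4.2 CPM with da:da and 45.4 ± 9.7 CPM in controls.

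Genes of neural precursor selection and commitment were mostly higher with scute: 16 of 23 tested (69.6%) rose and 2 (8.70%), mira and edl, fell. All genes tested had shares of 21.4% higher and 21.2% lower. The median log2 difference of the list was 0.74, against 0.01 over all genes. insb, a neural corepressor gene, stood at 216, 209 and 116 CPM with scute, against 0.798, 0.205 and 0.301 CPM with da:da (log2 difference 8.65 ± 0.46, adjusted p = 4.64e-08). phyl, the adaptor through which proneural proteins remove the Tramtrack repressor, stood at 153, 147 and 137 CPM with scute and at 2.39, 2.05 and 1.67 CPM with da:da (log2 difference 6.16 ± 0.17, adjusted p = 8.03e-10). Tramtrack's own gene ttk was also higher with scute, at 191 ± 14 CPM against 97.0 ± 11.5 CPM (log2 difference 0.98 ± 0.12, adjusted p = 2.76e-05). The zinc-finger gene nerfin-1 stood at 79.1, 73.2 and 35.5 CPM with scute and at most 0.762 CPM with da:da, and its lowest scute library was replicate 3.

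Some of these genes, and spdo from outside this list, were raised by both genotypes over the shared controls. They differed less between the genotypes than from the controls. sna, a Snail-family repressor gene, stood at 363, 330 and 188 CPM with scute and at 169, 161 and 171 CPM with da:da, with controls at 5.70 to 7.45 CPM. The 2 genotypes differed by a log2 value of only 0.82 ± 0.20 (adjusted p = 0.0053). nvy, a transcriptional corepressor gene, averaged 96.8 ± 27.4 CPM with scute and 61.5 ± 8.3 CPM with da:da (log2 difference 0.66 ± 0.20, adjusted p = 0.018), against 0.804 ± 0.227 CPM in controls. spdo, a regulator of Notch in asymmetric divisions, reached 60.4 ± 19.4 CPM with scute and 71.9 ± 18.6 CPM with da:da, with 3.67 ± 0.97 CPM in controls, and did not differ detectably between the genotypes (adjusted p = 0.50).

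A pair of commitment genes ran the other way. mira, which carries fate determinants in dividing neural stem cells, stood at 170, 159 and 98.6 CPM with scute, against 610, 542 and 545 CPM with da:da and 59.7 to 96.0 CPM in controls. Its log2 difference was -1.99 ± 0.21 (adjusted p = 1.04e-05), and the groups did not overlap. edl, an antagonist of the ETS factors downstream of EGFR, stood at 57.3, 54.6 and 50.9 CPM with scute, against 329, 324 and 270 CPM with da:da and 19.0 to 32.5 CPM in controls (log2 difference -2.50 ± 0.19, adjusted p = 6.34e-07).

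Notch response genes split into 2 sets. Of 7 E(spl) HES repressor genes tested, 4 (57.1%) were higher with scute: mgamma, mdelta, m8 and m7. Another 2 (28.6%), mbeta and m3, were lower, and m5 was not called. Calls over all genes tested were 21.4% higher and 21.2% lower. E(spl)mgamma-HLH stood at 405, 384 and 317 CPM with scute, against 9.78, 8.62 and 8.78 CPM with da:da (log2 difference 5.34 ± 0.17, adjusted p = 9.64e-10). E(spl)m8-HLH stood at 344, 322 and 350 CPM against 16.5, 14.0 and 14.0 CPM (log2 difference 4.51 ± 0.17, adjusted p = 5.24e-09), and E(spl)m7-HLH at 292, 275 and 348 CPM against 20.8, 22.0 and 18.3 CPM. In the opposite direction, E(spl)mbeta-HLH stood at 195, 156 and 137 CPM with scute and at 858, 772 and 651 CPM with da:da (log2 difference -2.22 ± 0.15, adjusted p = 2.68e-07). E(spl)m3-HLH stood at 162, 128 and 119 CPM with scute and at 446, 436 and 592 CPM with da:da (log2 difference -1.85 ± 0.18, adjusted p = 6.04e-06). The scute and da:da libraries overlapped at none of these 5 genes. Over all genes tested, they did not overlap at 26.9% with scute above and at 25.9% with da:da above.

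The summed level of the 7 genes hid this split, at 1418, 1283 and 1298 CPM with scute and 1352, 1254 and 1286 CPM with da:da. In controls, E(spl)mbeta-HLH stood at 607 ± 37 CPM and E(spl)m3-HLH at 467 ± 100.6 CPM (SD, n = 3), whereas E(spl)mgamma-HLH stood at 5.71 ± 1.16 CPM, E(spl)m8-HLH at 2.69 ± 0.75 CPM and E(spl)m7-HLH at 7.89 ± 2.59 CPM. Against these shared controls, E(spl)mbeta-HLH had a log2 value of -1.90 in scute cells (adjusted p = 7.66e-07) and of 0.33 in da:da cells (adjusted p = 0.19). E(spl)m8-HLH had one of 6.97 in scute cells (adjusted p = 6.57e-10) and of 2.46 in da:da cells (adjusted p = 1.74e-06).

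The genes lie in one cluster on 3R between 25997621 and 26041008, together with Bearded-family genes, which encode small inhibitors of Neuralized-dependent Delta signalling. Along the chromosome, among the genes of these lists, mdelta and mgamma were higher with scute, and mbeta and malpha were lower. After them m2 was not called, m3 was lower, m4 was higher, m5 was not called, and m6, m7 and m8 were higher. This order leaves out m1, named Kaz-m1 in the annotation and not counted in a list. Kaz-m1 was higher with scute, at 54.5 CPM against 9.32 CPM with da:da (log2 difference 2.55 ± 0.27, adjusted p = 1.16e-05). E(spl)malpha-BFM stood at 285, 228 and 211 CPM with scute, against 859, 819 and 817 CPM with da:da (log2 difference -1.78 ± 0.13, adjusted p = 4.73e-07). E(spl)m4-BFM stood at 11.4, 9.43 and 16.1 CPM with scute, against 0.1995, 0.365 and 0.301 CPM with da:da (log2 difference 5.42 ± 0.40, adjusted p = 5.97e-07). Over the Bearded family, 4 of 7 tested genes (57.1%) were higher and 1 (14.3%) was lower, against 21.4% and 21.2% over all genes tested. The Bearded-family gene Brd, at 0.631 CPM with scute and 0.184 CPM with da:da, lost its call when scute replicate 2, scute replicate 3, da:da replicate 1 or da:da replicate 3 was left out.

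Other HES and HEY repressor genes were mostly higher with scute. Of 5 list members, 4 (80%) were called up and 1 (20%), cwo, was called down. Among all genes tested, 21.4% were called up and 21.2% down. The 4 were dpn, Hey, h and side, but side encodes the membrane protein Sidestep and is not such a repressor gene. dpn, a neural stem cell repressor gene, stood at 49.7, 51.5 and 60.9 CPM with scute, against 0.562, 0.638 and 0.771 CPM with da:da (log2 difference 6.36 ± 0.17, adjusted p = 4.22e-10), although 59.3% of its exon bases overlap an antisense gene. Hey, a Notch target of newly born neurons, stood at 10.8, 13.2 and 31.8 CPM against 0.417, 0.0912 and 0.357 CPM (log2 difference 5.96 ± 0.54, adjusted p = 2.98e-06). cwo, a repressor gene of the circadian clock, was lower by 0.56 ± 0.13 on the log2 scale (adjusted p = 0.0049), a call that plain library sizes did not give (adjusted p = 0.19).

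**Figure D3:**
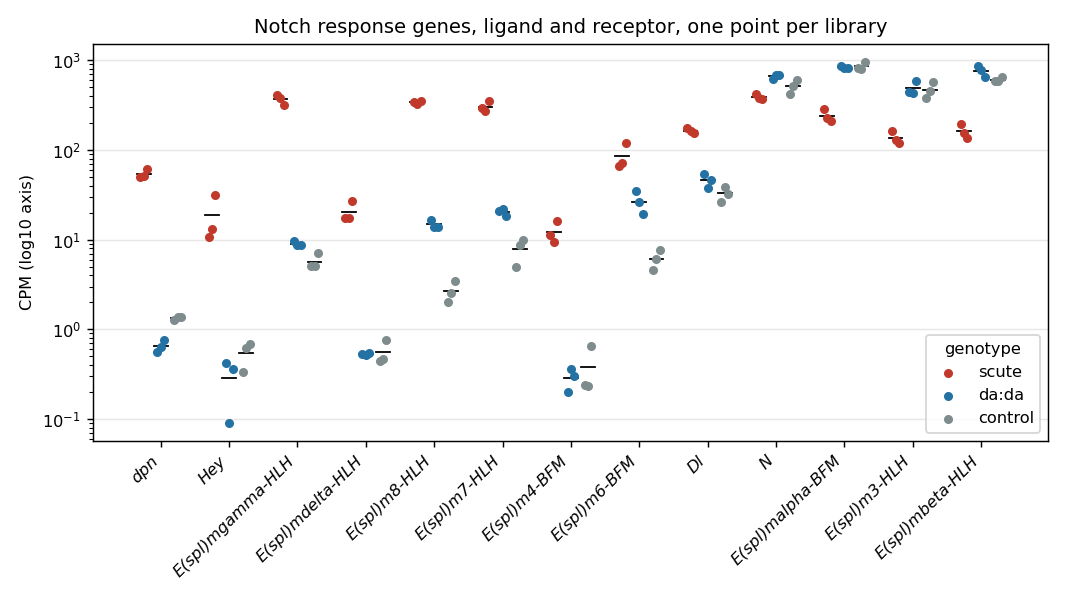
CPM of Notch response genes, the ligand gene Dl and the receptor gene N on a log10 axis, 1 point per library with scute, da:da and control from left to right and bars at the mean of 3 libraries. From dpn to Dl every scute library lies above every da:da library, and from N to E(spl)mbeta-HLH every scute library lies below every da:da library.

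Among 21 genes for Notch ligands, the receptor and its processing, 7 (33.3%) were higher with scute and 7 (33.3%) were lower. The shares over all genes tested were 21.4% and 21.2%. The median log2 difference of the list was -0.15. With plain library sizes, 10 were higher and 6 lower and the median was 0.18. The ligand gene Dl stood at 176, 163 and 154 CPM with scute, against 54.0, 37.9 and 46.4 CPM with da:da (log2 difference 1.83 ± 0.16, adjusted p = 1.91e-06), and Su(H), the DNA-binding factor of the pathway, at 32.6 ± 3.2 CPM against 14.0 ± 0.8 CPM (log2 difference 1.22 ± 0.11, adjusted p = 4.01e-06). numb, an inhibitor of Notch in asymmetric divisions, was higher by 0.94 ± 0.13 (adjusted p = 1.01e-04). The receptor gene N and the processing genes named here were lower instead. N stood at 420, 378 and 370 CPM with scute, against 625, 693 and 683 CPM with da:da (log2 difference -0.78 ± 0.13, adjusted p = 3.51e-04), and kuz, the protease that cleaves it, at 255 ± 24 CPM against 483 ± 22 CPM (log2 difference -0.92 ± 0.12, adjusted p = 6.82e-05). fng, the glycosyltransferase that tunes ligand choice, and the gamma-secretase genes Nct, aph-1 and pen-2 were lower as well. neur, the ubiquitin ligase that activates Delta, stood at 134, 123 and 90.7 CPM with scute and at 231, 216 and 200 CPM with da:da, both above the controls at 17.1 to 24.0 CPM. neur shares 38.8% of its exon bases with an antisense gene.

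Of 16 enteroendocrine transcription factor genes tested, 12 (75%) were higher with scute and 1 (6.25%), fru, was lower. These shares were 21.4% and 21.2% over all genes tested. The median log2 difference of the list was 2.28. pros, which defines the enteroendocrine fate, stood at 478, 501 and 661 CPM with scute, against 47.9, 46.2 and 59.6 CPM with da:da and 36.8 to 44.8 CPM in controls. The 10.7-fold difference (log2 difference 3.42 ± 0.16, adjusted p = 1.73e-08) left no overlap. dac stood at 46.3, 51.8 and 80.7 CPM with scute against 2.19, 1.82 and 2.80 CPM with da:da (log2 difference 4.71 ± 0.26, adjusted p = 6.16e-08). onecut, Poxn, scrt and dimm were higher by log2 values between 2.32 and 3.15. fru stood at 147, 114.5 and 69.9 CPM with scute and at 213, 213 and 217 CPM with da:da (log2 difference -0.95 ± 0.22, adjusted p = 0.0035).

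Peptide hormone genes were called in both directions. Of 13 tested, 9 (69.2%) were higher with scute and the median log2 difference was 2.63. Another 3 (23.1%), Mip, NPF and ITP, were lower. Over all genes tested, 21.4% were higher and 21.2% lower, so the lower share was near that of all genes. CCHa1 stood at 770, 851 and 1070 CPM with scute, against 2.83, 1.96 and 1.54 CPM with da:da (log2 difference 8.73 ± 0.54, adjusted p = 1.65e-07). AstA stood at 477, 695 and 1055 CPM against 2.32, 5.17 and 1.32 CPM (log2 difference 7.999 ± 0.65, adjusted p = 1.28e-06), and AstC at 452, 589 and 951 CPM against 30.1, 27.6 and 50.8 CPM (log2 difference 4.198 ± 0.33, adjusted p = 9.29e-07). All are regulatory peptides of gut endocrine cells. CCHa2 varied most between scute libraries, at 25.5, 79.2 and 292 CPM, against 0.852, 1.12 and 1.52 CPM with da:da (log2 difference 6.83 ± 0.89, adjusted p = 5.89e-05).

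NPF, the neuropeptide F gene, ran the other way at 1681, 1637 and 2114 CPM with scute and 4177, 4991 and 7396 CPM with da:da (log2 difference -1.61 ± 0.19, adjusted p = 3.07e-05). Controls held 3568 to 3880 CPM. With NPF included, the summed hormone level was 4257 to 7264 CPM with scute and 4786 to 8234 CPM with da:da, which overlap, whereas the sum without NPF was 2576 to 5149 CPM with scute, 609 to 838 CPM with da:da and 492 to 581 CPM in controls. Tk stood at 441, 566 and 674 CPM with scute and at 345, 383 and 523 CPM with da:da, overlapped and was not called (adjusted p = 0.069). Dh31 stood at 37.5, 39.9 and 65.5 CPM with scute, against 2.21, 2.19 and 3.52 CPM with da:da (log2 difference 4.17 ± 0.31, adjusted p = 6.73e-07). Controls lay between the genotypes at 15.5 to 27.9 CPM, with a log2 value of 1.25 with scute (adjusted p = 0.0024) and of -2.92 with da:da (adjusted p = 4.81e-05) against them. Replicate 3 was the highest scute library for 12 of the 13 hormone genes and the highest da:da library for 10 of them. Without scute replicate 3, 8 of the 13 were higher and 3 lower.

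**Figure D4:**
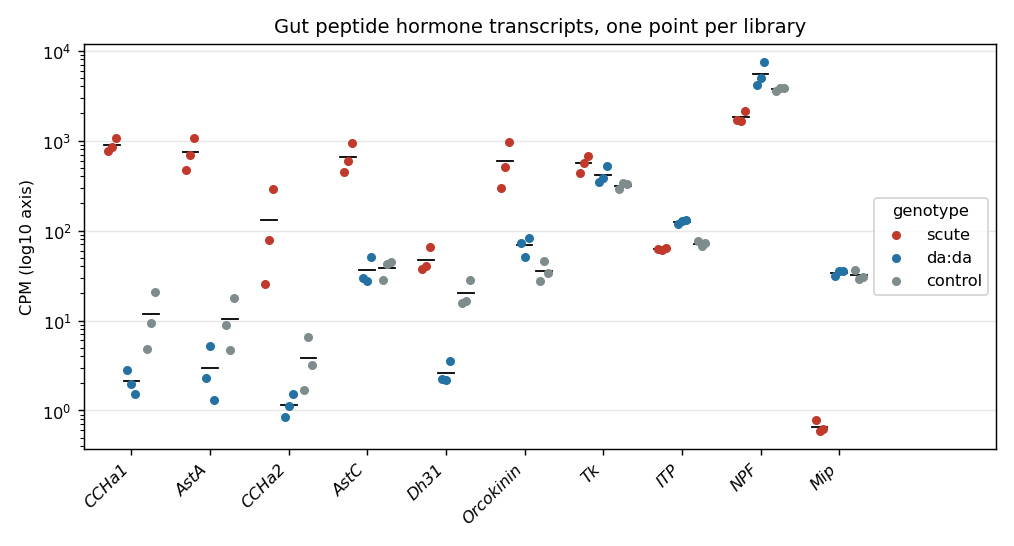
CPM of 10 gut peptide hormone genes on a log10 axis, 1 point per library with scute, da:da and control from left to right and bars at the mean of 3 libraries. CCHa1, AstA, CCHa2, AstC, Dh31 and Orcokinin lie higher in all scute libraries, Tk overlaps, and ITP, NPF and Mip lie lower in all scute libraries.

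Prohormone processing genes were higher as well, beside shares of 21.4% higher and 21.2% lower over all genes tested. Of 9 processing genes, 7 (77.8%) were higher with scute and none lower (median log2 difference 1.55). Their summed level was 4152, 5058 and 8617 CPM with scute, against 1557, 1763 and 2662 CPM with da:da, and replicate 3 was the highest scute library for 7 of the 9 genes and the highest da:da library for 9. IA-2, a tyrosine phosphatase-like protein of dense-core vesicles, stood at 2504, 2974 and 5346 CPM with scute, against 819, 954 and 1526 CPM with da:da (log2 difference 1.71 ± 0.28, adjusted p = 3.65e-04). amon, the prohormone convertase of the fly, and its helper 7B2 were higher by 2.10 ± 0.35 (adjusted p = 3.72e-04) and 2.16 ± 0.27 (adjusted p = 4.05e-05), and the furin gene Fur1 by 3.18 ± 0.12 (adjusted p = 4.50e-09). The carboxypeptidase gene svr, at 654 ± 224 CPM with scute and 444 ± 107 CPM with da:da, overlapped and was not called (adjusted p = 0.056).

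Receptors for such peptides were higher with scute in 7 of 15 tested (46.7%) and lower in none. Shares over all genes tested were 21.4% higher and 21.2% lower. The list of receptors was chosen after the values were seen. NPFR, the receptor of neuropeptide F, stood at 340, 346 and 386 CPM with scute, against 3.21, 4.19 and 4.42 CPM with da:da (log2 difference 6.503 ± 0.20, adjusted p = 9.64e-10) and 1.94 to 3.22 CPM in controls. AstA-R1 stood at 120, 110 and 103 CPM against 5.77, 3.62 and 3.01 CPM (log2 difference 4.74 ± 0.24, adjusted p = 3.44e-08). Replicate 3 was the highest scute library and the highest da:da library for 11 of the 15 receptor genes each. The 8 receptors that were not called, CCHa1-R and Dh31-R among them, had group means of at most 16.1 CPM, the highest being that of AstA-R2 with da:da.

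Genes of vesicle release and of neuronal membranes were higher with scute in 24 of 30 tested (80%) and lower in 1 (3.33%). Among all genes tested, 21.4% were higher and 21.2% lower. The median log2 difference of the list was 2.52. nrv3, a sodium pump subunit gene, stood at 861, 986 and 1319 CPM with scute, against 48.5, 48.1 and 76.9 CPM with da:da (log2 difference 4.19 ± 0.23, adjusted p = 6.16e-08). stai, a stathmin gene, stood at 202, 211 and 203 CPM against 6.17, 5.33 and 4.91 CPM (log2 difference 5.23 ± 0.16, adjusted p = 9.64e-10), and Rab3, a vesicle GTPase gene, at 232, 228 and 306 CPM against 11.8, 13.6 and 24.6 CPM (log2 difference 3.94 ± 0.26, adjusted p = 2.98e-07). nSyb and brp, synaptic vesicle and active zone genes, were higher by 3.34 ± 0.22 and 2.49 ± 0.16. The exception was cac, which encodes a voltage-gated calcium channel. It stood at 340, 372 and 346 CPM with scute, against 1340, 1682 and 1610 CPM with da:da (log2 difference -2.13 ± 0.11, adjusted p = 3.66e-08). Both were above the controls at 36.6 to 39.1 CPM, with log2 values of 3.22 in scute cells (adjusted p = 3.09e-09) and 5.35 in da:da cells (adjusted p = 7.13e-10). Another calcium channel gene, Ca-alpha1D, ran the other way, at 87.3 CPM with scute and 11.4 CPM with da:da.

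Progenitor genes split, with 9 of 17 (52.9%) lower with scute and 5 (29.4%) higher, and a median log2 difference of -0.48. All genes tested had shares of 21.2% lower and 21.4% higher. esg itself stood at 570, 507 and 365 CPM with scute, against 882, 930 and 973 CPM with da:da (log2 difference -0.95 ± 0.14, adjusted p = 1.94e-04), and against the shared controls its log2 value was -0.44 in scute cells (adjusted p = 0.025) and 0.51 in da:da cells (adjusted p = 0.038). Sox100B stood at 125, 95.7 and 62.0 CPM with scute, against 459, 521 and 454 CPM with da:da (log2 difference -2.34 ± 0.20, adjusted p = 2.13e-06). Sox21a, another Sox factor gene of progenitors, fell to 57.8 ± 0.7 CPM with scute, against 154 ± 20 CPM with da:da (log2 difference -1.42 ± 0.13, adjusted p = 3.39e-06). klu, an enteroblast repressor gene, was lower by 1.08 ± 0.13 on the log2 scale (adjusted p = 3.97e-05). The genes higher with scute were wor, Dl, Su(H), sna and insc. Replicate 3 was the lowest scute library for 12 of the 17 genes.

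Enterocyte genes did not move as one. Of 16 tested, 9 were higher with scute and 3 lower, and the 3 smooth septate junction genes led. Ssk stood at 451, 563 and 673 CPM with scute, against 20.8, 21.3 and 36.5 CPM with da:da (log2 difference 4.42 ± 0.40, adjusted p = 2.85e-06), mesh at 237, 288 and 365 CPM against 13.7, 13.8 and 34.4 CPM, and Tsp2A at 328, 371 and 419 CPM against 32.3, 34.0 and 29.3 CPM. The groups did not overlap at any of these genes, which also held, with scute above, at 26.9% of all genes tested. nub, the enterocyte POU factor gene, stood at 4.67 ± 0.42 CPM with scute and 4.41 ± 1.41 CPM with da:da and was not called (adjusted p = 0.85), nor was GATAe. The unconventional myosin gene Myo31DF was lower with scute by 1.20 ± 0.12 (adjusted p = 7.34e-06) and the non-muscle myosin II gene zip by 1.55 ± 0.11 (adjusted p = 3.14e-07). Of 41 digestive enzyme genes, 3 (7.32%) were higher and 5 (12.2%) lower, against 21.4% and 21.2% over all genes tested. These counts became 6 higher and 3 lower with plain library sizes and also without scute replicate 3. Without da:da replicate 3 they became 9 higher and 3 lower. Scute replicate 3 was the lowest scute library for 35 of these genes, da:da replicate 1 the lowest da:da library for 29 and da:da replicate 3 the highest for 33. Their summed level was 1298, 1630 and 991 CPM with scute and 588, 1207 and 2404 CPM with da:da. The neighbouring maltase genes Mal-A2 and Mal-A3 were higher by 4.24 ± 0.37 and 5.06 ± 0.39.

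EGFR pathway genes were called in both directions, with 9 of 23 higher and 6 lower (median log2 difference 0.01). These shares were 39.1% and 26.1%, against 21.4% higher and 21.2% lower over all genes tested. The 6 lower genes included the receptor and its feedback inhibitors. Egfr stood at 146, 124 and 79.8 CPM with scute, against 538, 547 and 563 CPM with da:da (log2 difference -2.23 ± 0.21, adjusted p = 3.58e-06) and 97.7 to 143 CPM in controls. sty, which encodes the inhibitor Sprouty, stood at 279, 258 and 261 CPM with scute and at 746, 755 and 813 CPM with da:da (log2 difference -1.53 ± 0.11, adjusted p = 6.58e-07), and aos, a secreted inhibitor gene, at 9.96 ± 1.23 CPM with scute and 34.2 ± 1.3 CPM with da:da. Another feedback gene, kek1, was higher with scute by 1.96 ± 0.18 (adjusted p = 4.08e-06). Of 10 JAK-STAT pathway genes, 4 (40%) were lower and 1 (10%) was higher. upd2, a cytokine gene, stood at 2.38, 2.62 and 2.27 CPM with scute, against 59.2, 60.7 and 40.2 CPM with da:da (log2 difference -4.46 ± 0.27, adjusted p = 1.26e-07) and 11.9 to 24.5 CPM in controls, and upd3 at 10.1 ± 2.1 CPM against 39.4 ± 3.1 CPM.

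Genes of the cell cycle were broadly higher with scute. Of 41 DNA replication genes, 33 (80.5%) were higher, with a median log2 difference of 0.93. Of 56 mitosis genes, 43 (76.8%) were higher and 5 (8.93%) lower, with a median of 1.13. These shares compare with 21.4% higher and 21.2% lower over all genes tested. CycE, the cyclin that starts S phase, stood at 78.9, 63.2 and 37.7 CPM with scute, against 2.32, 1.94 and 1.84 CPM with da:da (log2 difference 4.88 ± 0.27, adjusted p = 5.99e-08). Mcm6, of the replicative helicase, stood at 66.7, 65.1 and 80.9 CPM against 12.9, 11.3 and 11.9 CPM (log2 difference 2.56 ± 0.18, adjusted p = 5.18e-07). CycB, the mitotic cyclin, stood at 42.5, 42.5 and 58.4 CPM against 6.06, 4.76 and 5.72 CPM (log2 difference 3.11 ± 0.23, adjusted p = 5.62e-07), and polo, a mitotic kinase gene, was higher by 2.21 ± 0.09. stg, the phosphatase that triggers mitosis, differed less, by 1.20 ± 0.11. Among the exceptions, the microtubule genes tacc and Eb1 were lower with scute by 1.19 ± 0.10 and 0.92 ± 0.08. Mcm7 was called higher too, but an antisense gene covers 81.7% of its exon bases.

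The machinery of translation ran the other way. Among all genes tested, 21.2% were lower with scute and 21.4% higher. Of 89 cytosolic ribosomal protein genes, 81 (91.0%) were lower and 3 (3.37%) higher, with a median log2 difference of -0.87. Their summed level was 170700, 160300 and 125800 CPM with scute, against 298800, 285600 and 225700 CPM with da:da and 281700 to 315400 CPM in controls. RpL27A stood at 2848, 2634 and 1944 CPM with scute, against 6082, 5968 and 4369 CPM with da:da (log2 difference -1.15 ± 0.17, adjusted p = 1.56e-04). The 3 exceptions, RpL37b, RpS19b and RpS5b, are the second copies of paired ribosomal protein genes and had means of at most 4.70 CPM with scute. Mitochondrial ribosomal protein genes were lower in 55 of 71 and higher in 1 (median -0.54), and aminoacyl-tRNA synthetase genes were lower in 27 of 32 and higher in 1 (median -0.94). ThrRS, the threonyl-tRNA synthetase gene, stood at 116, 105 and 107 CPM with scute, against 434, 464 and 354 CPM with da:da (log2 difference -1.93 ± 0.14, adjusted p = 4.20e-07). With plain library sizes these lists held 73, 23 and 22 lower genes.

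Nuclear oxidative phosphorylation genes differed little, with 8 of 82 higher, 19 lower and a median of -0.06. The shares were 9.76% higher and 23.2% lower, against 21.4% and 21.2% over all genes tested. Their direction turned with plain library sizes (30 higher and 1 lower). Proteasome genes, with 4 of 42 higher and 5 lower, became 17 higher and 0 lower with plain library sizes but 1 higher and 5 lower with RLE factors or DESeq2, and 1 higher and 4 lower with the replicate block or without the controls. V-ATPase genes, with 4 of 28 (14.3%) higher and 7 (25%) lower, became 7 higher and 3 lower with plain library sizes.

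**Figure D5:**
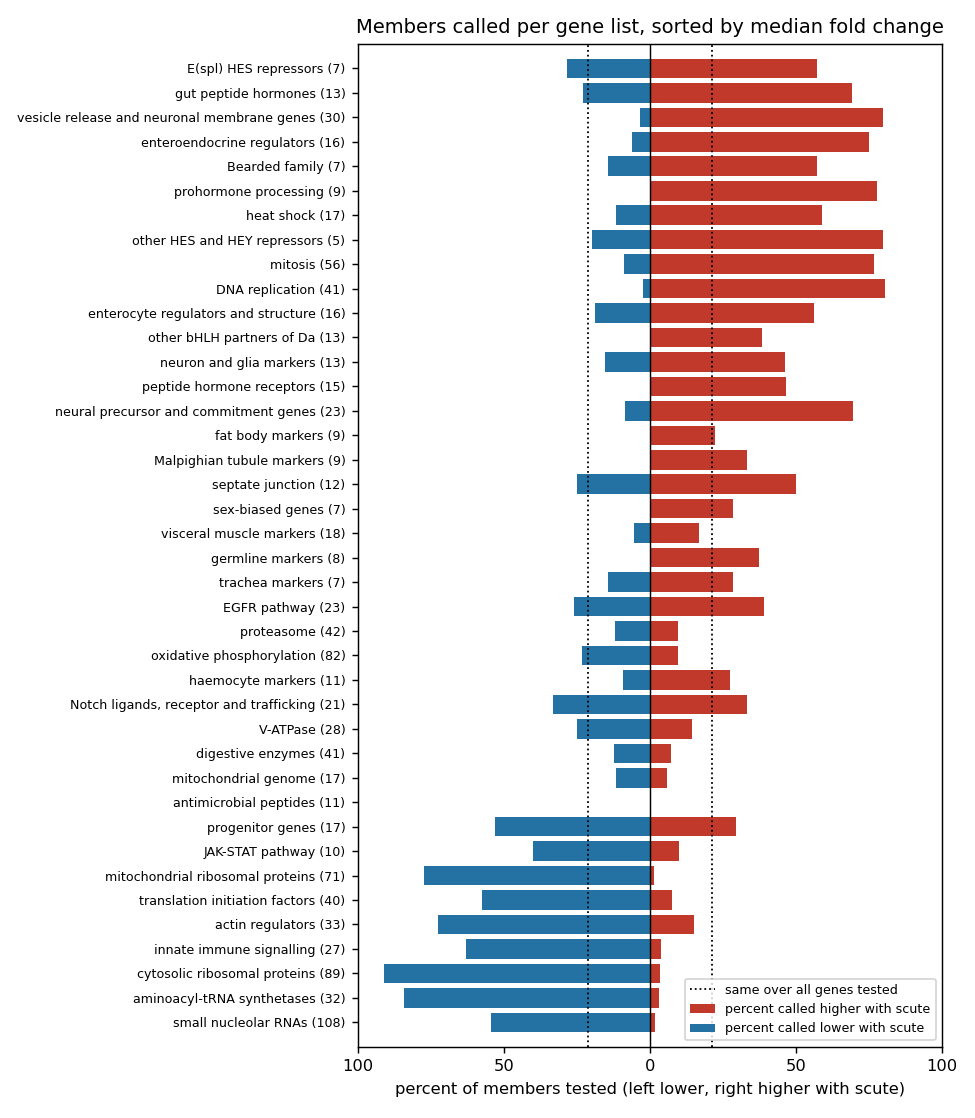
Share of the tested members of each gene list called higher (red, to the right) or lower (blue, to the left) with scute than with da:da, in percent, with the number of members tested in parentheses and lists ordered by median log2 fold change. The lists with 3 and 4 members tested are not drawn. Dotted lines mark the shares over all genes tested, 21.4% higher and 21.2% lower. Hormone, neuronal, cell cycle, enteroendocrine and heat shock lists are among those that pass the right line. The list of enterocyte regulators and structure passes it too, but the digestive enzyme list (7.32% higher) does not. Ribosomal, synthetase, small nucleolar RNA, progenitor, actin and immune signalling lists are among those that pass the left one. Some lists pass both, such as the hormone list (69.2% higher and 23.1% lower).

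Counts of heat shock genes depended on single libraries. Of 17 tested, 10 (58.8%) were higher with scute and 2 (11.8%) lower, against 21.4% and 21.2% over all genes tested. Only 5 heat shock genes were higher without scute replicate 3, 6 without da:da replicate 1 and 6 without da:da replicate 2. Hsp26, a small heat shock protein gene, stood at 325, 587 and 2364 CPM with scute, against 204, 186 and 269 CPM with da:da (log2 difference 2.31 ± 0.58, adjusted p = 0.0065). Hsp23, a related gene, stood at 705, 1098 and 4752 CPM against 432, 464 and 464 CPM, and its log2 difference of 2.27 ± 0.68 (adjusted p = 0.017) became 0.99 without scute replicate 3 (adjusted p = 0.14). The call of Hsp23 was also lost without da:da replicate 1 (adjusted p = 0.052) or da:da replicate 2 (adjusted p = 0.053), at log2 differences of 2.24 and 2.29. Replicate 3 was the highest scute library for 16 of the 17 genes and the highest da:da library for 13. Reads of the near-identical Hsp70 copies could not be assigned to single genes with certainty. Among 11 antimicrobial peptide genes tested, edgeR called 0 and DESeq2 called 0, with 1 (CecA1) at an unadjusted p under 0.05, and their summed level was 2.89 to 11.4 CPM with scute and 2.43 to 11.8 CPM with da:da.

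Markers of cells that could have passed the sort were read beside these results. Over all genes tested, 21.4% were called higher and 21.2% lower with scute. Visceral muscle markers were called in 3 of 18 upward and 1 downward (summed level 995 to 1076 CPM with scute and 1318 to 1446 CPM with da:da, of which Tm1 averaged 833 CPM with scute and 1216 CPM with da:da), and the muscle myosin gene Mhc stood at 4.78 ± 0.65 CPM with scute and 5.27 ± 0.60 CPM with da:da. Haemocyte markers were called in 3 of 11 upward and 1 downward (summed level 136 to 155 CPM with scute and 161 to 165 CPM with da:da, median log2 difference -0.12, or 0.20 with plain library sizes), with Hml at 2.07 ± 0.20 CPM with scute and 1.91 ± 0.51 CPM with da:da. Neuron and glia markers were called in 6 of 13 upward and 2 downward (summed level 477 to 540 CPM with scute and 579 to 675 CPM with da:da). Of these markers, elav, VGlut, nSyb, brp and para also count in the vesicle release list above, and the last 3 were among those called upward. moody, a glial barrier receptor gene in that list, stood at 111 ± 14 CPM with scute and 449 ± 30 CPM with da:da. The glial gene repo was near 0, at 0.599 ± 0.135 CPM with scute and 0.348 ± 0.013 CPM with da:da. Trachea markers were called in 2 of 7 (28.6%) upward and 1 (14.3%) downward. Fat body markers were called upward in 2 of 9 (22.2%), germline markers in 3 of 8 (37.5%) and Malpighian tubule markers in 3 of 9 (33.3%). None of these last 3 lists had a downward call. The germline gene nos, present under the symbol nanos, was not counted in its list and was not called (adjusted p = 0.41). Eaat1, a glutamate transporter gene of the tubule list, stood out at 41.6 ± 4.5 CPM with scute and 1.61 ± 0.14 CPM with da:da. Of 7 sex-biased genes, 2 were called higher with scute, Sxl and the male-specific lncRNA:roX1. lncRNA:roX1 stood at 4.82 ± 0.66 CPM with scute and 2.38 ± 0.47 CPM with da:da. Sxl stood at 260, 251 and 273 CPM with scute and at 201, 217 and 230 CPM with da:da (log2 difference 0.28 ± 0.10, adjusted p = 0.044), and its call was lost with RLE factors (adjusted p = 0.089), with DESeq2 (adjusted p = 0.10), without control replicate 3 (adjusted p = 0.055) and without any one scute or da:da library (adjusted p between 0.063 and 0.16). The part of admixed cells in the results was not tested.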

How the data were processed

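RNA of sorted esg+ midgut cells was amplified and sequenced as pairs of 150 bp reads, per the labels' protocols. The deposited files hold raw counts of reads per gene that the authors made with featureCounts 2.0.2 with annotation release 101 of BDGP6.28, per the file headers. The recorded command set no strand, counted each mate and left out multi-mapping reads. The aligner is not given in the sources used here. RNA amplification without molecular identifiers means that counts are not independent molecules.

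Libraries were grouped by their labels. Counts of the 9 libraries of batch 2 were fitted with edgeR 4.0.16 (R 4.3.3, limma 3.58.1): filterByExpr by group, TMM scaling, quasi-likelihood test, contrast scute minus da:da, Benjamini-Hochberg adjustment over 14190 genes, threshold 0.05. Controls entered the filter, the scaling and the spread, not the contrast. CPM used TMM-scaled library sizes, and a standard error is the log2 difference over the square root of F. P-values measure the spread between pools of guts. The script was tested on simulated counts. Symbols came from the authors' sheet for 9986 genes and a reference table for 7762, and 59 had none; 17 per-sample columns of that sheet were not used. Deviations of same-numbered libraries did not correlate above 0.1 in every pair, so numbers were not treated as pairs; a fit with them as a block was an alternative.

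Named genes were the manipulated genes, fixed lineage genes, the 12 largest rises and falls among called, non-overlapping genes averaging 10 CPM or more, and up to 4 genes each way per list; others were named after their values were seen. The members and lists were chosen with earlier results of these data known. Some genes count in more than 1 list, such as pros, nerfin-1 and scrt in the commitment and enteroendocrine lists. Lists of hormone receptors, septate junction genes, small nucleolar RNAs, initiation factors, actin regulators and immune signalling genes were added after the values were seen. Alternatives were other filters, RLE factors, unscaled library sizes, DESeq2 1.42.0, 6 libraries without controls, a replicate block, halved counts and leaving out each library. Promoter sequences were not analysed here. The value of 1 replication gene is not reported here.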

Additional observations from a re-analysis of the deposited data

How the results depend on the processing

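With library sizes left unscaled in place of TMM, genes higher with scute numbered 4757 and genes lower 1746 (6503 in all), against 3042 and 3012 with TMM. Under the same setting 2 named proteasome genes changed sign, Rpt5 to 0.026 (adjusted p = 0.83) and Prosalpha2 to 0.051 (adjusted p = 0.69) on the log2 scale. The cause was not tested. Called genes numbered 5933 with no low-count filter, 5794 with a filter of 1 CPM in 3 libraries, 6002 with RLE factors, 6148 with DESeq2 (11 adjusted p-values missing), 5972 without the controls and 6132 with counts halved. Leaving out each library gave 5200 to 6115 called genes, with 2586 to 3087 higher and 2573 to 3144 lower. The replicate block gave 6009, and the deviations of same-numbered scute and da:da libraries correlated at 0.121, -0.022 and 0.085. Same-numbered da:da and control libraries correlated at 0.272, 0.027 and 0.243, and same-numbered scute and control libraries at 0.072, 0.026 and 0.053. Differently numbered da:da and control libraries correlated at -0.254 to 0.099. Scute replicate 1 correlated better with da:da replicate 2 (0.138) than with da:da replicate 1. The labels give no shared litter or day, so the numbers were not taken as pairs, although replicate 3 was the highest library of both genotypes for most hormone, prohormone processing and heat shock genes. Over all alternatives sc, da and emc kept their direction and call. Of 226 named genes that were called, 196 kept their call under all 17 alternatives. Most named genes were picked for large differences in these data, so this count does not stand for called genes in general. Genes with few counts limit what can be said: the call of Brd was lost in 4 of the 9 fits that left out a library.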

Other observations

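Among all genes tested, 21.2% were lower with scute and 21.4% higher. Actin regulators were lower in 24 of 33 genes (72.7%) and higher in 5 (15.15%), with a median log2 difference of -0.72. With unscaled library sizes, 17 actin regulators were lower and 7 higher. The list was chosen after the values were seen. Mlc-c was listed but not matched by its spelling, so these counts leave it out. It was lower with scute too (log2 difference -1.63 ± 0.10, adjusted p = 1.2e-07). Act5C, a cytoplasmic actin gene, stood at 2694, 2699 and 2633 CPM with scute, against 6488, 6720 and 7749 CPM with da:da and 6016 to 6729 CPM in controls (log2 difference -1.39 ± 0.11, adjusted p = 1.50e-06). Fim, which encodes the actin bundler fimbrin, stood at 616, 574 and 583 CPM with scute and at 2215, 2388 and 2477 CPM with da:da (log2 difference -1.997 ± 0.11, adjusted p = 7.18e-08). sn, the fascin gene, and ena, an actin polymerase gene, ran the other way, by 2.21 ± 0.21 and 1.03 ± 0.11. Innate immune signalling genes, also chosen after their values were seen, were lower in 17 of 27 (63.0%) and higher in 1 (3.70%). Rel, the NF-kappaB factor of the Imd pathway, stood at 214, 167 and 179 CPM with scute, against 849, 914 and 583 CPM with da:da and 1058 to 1818 CPM in controls (log2 difference -2.07 ± 0.22, adjusted p = 9.69e-06). spz, the ligand gene of Toll, stood at 3.50, 1.14 and 1.30 CPM with scute and at 43.6, 36.4 and 31.4 CPM with da:da (log2 difference -4.23 ± 0.37, adjusted p = 2.26e-06).

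Small nucleolar RNA genes, which guide RNA modification, were lower with scute in 59 of 108 tested (54.6%) and higher in 2 (1.85%). All genes tested had shares of 21.2% lower and 21.4% higher. The small nucleolar RNA genes had a median log2 difference of -1.11, and 39 were lower with unscaled library sizes. Their summed level was 31.1 to 34.5 CPM with scute, 60.6 to 69.9 CPM with da:da and 75.9 to 94.4 CPM in controls. Translation initiation factor genes were lower in 23 of 40 (57.5%) and higher in 3 (7.5%). Septate junction genes were higher in 6 of 12 (50%) and lower in 3 (25%), the latter near the share over all genes tested. Ssk, mesh and Tsp2A of the enterocyte list were among the higher septate junction genes. Genes on chromosome 4 were called higher with scute in 45 of 102 (44.1%) and lower in 6 (5.88%), while the other large arms had 20.5% to 22.2% higher. CG32318 on 3L, named after its values were seen, had 0 counts in each of the 3 scute libraries, against 236, 142 and 287 counts with da:da and 240 to 396 counts in controls. With a floor of 3 counts over the scute group, it was at least 331-fold lower with scute than with da:da.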
